A study of Mus musculus with 6 samples.

Results

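The T cell receptor signalling genes described here are 9 named genes, Cd3d, Cd3e, Cd3g, Cd247, Cd4, Cd8a, Lck, Zap70 and Lat, found by their symbols among the 32371 genes of a table of RNA-Seq read counts. The table held 6 libraries of mouse retinal cells. All mice were C57BL/6J adults of both sexes, 6 to 10 weeks old. All received a virus in the vitreous body, an optic nerve crush (ONC) 2 weeks later and cell collection 3 days after the crush. For 3 libraries the virus was AAV2-GFP, the control, and for 3 it was AAV2-Ezh2-Y726D, which carries a catalytically dead form of the histone methyltransferase Ezh2. Surgeries were done under ketamine and xylazine anesthesia, and no further agent is named. The controls thus shared the injury and the capsid, and uninjured retina was not analysed here. The promoter of the viruses is not given in the sources used here, nor is it stated whether a library held the cells of 1 mouse or of pooled mice, so P values measure the spread between these libraries, which may be in part technical.

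In a T cell, the receptor that recognises antigen has no signalling tail of its own and is held at the surface by the CD3 chains and the zeta chain, which carry tyrosine motifs. The co-receptors CD4 and CD8 bring the kinase Lck to the engaged receptor, Lck phosphorylates the motifs, the kinase Zap70 docks on them, and Zap70 phosphorylates the adaptor Lat, on which the further signalling proteins assemble. The complex as a whole is a hallmark of T cells, although some CD3 chains, zeta among them, have also been described in developing retinal ganglion cells, and T cells can enter the injured retina. The label of the libraries is retinal ganglion cells, which were sorted as living cells that bound an antibody to CD90.2 (Thy1), an antigen that mouse T cells also carry.

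The tissue label was checked against 10 retinal ganglion cell markers, all of which were detected, with summed levels of 489.5 to 502 CPM in the GFP libraries and 466 to 502 CPM in the Ezh2-Y726D libraries. CPM are a gene's read counts relative to the size of its library, with library sizes scaled by the TMM method, which aligns the bulk of the genes between libraries. Transcripts of other cells were present beside them. The summed level of 8 amacrine cell markers was 1068 to 1142 CPM in GFP and 1631 to 1697 CPM in Ezh2-Y726D, and that of 10 microglia and macrophage markers was 572 to 644 and 346 to 403 CPM. Thy1, the sorted antigen, was at 105 ± 5.51 CPM in GFP and 116 ± 5.50 CPM in Ezh2-Y726D (mean ± SD, n = 3 libraries each). Ezh2, the overexpressed gene, measured 22.7, 23.8 and 26.3 CPM with AAV2-GFP and 65.2, 65.5 and 65.1 CPM with AAV2-Ezh2-Y726D, as the labels say. Total counts ranged from 9333244 to 23782520, and 1 ribosomal RNA gene took 6.59% of them in GFP replicate 1 but 50.9% and 52.2% in GFP replicates 2 and 3, against 2.55% to 16.1% in Ezh2-Y726D. GFP replicates 2 and 3 therefore stand apart, and results are also given with GFP replicate 1 as the only GFP library.

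All 9 genes were expressed, and 8 of them were lower after Ezh2-Y726D overexpression: the 4 signalling chains Cd3d, Cd3e, Cd3g and Cd247, the co-receptors Cd4 and Cd8a, the kinase Lck and the adaptor Lat. Their fitted log2 fold changes lay between -0.97 and -0.66. The kinase Zap70 did not pass the test, with a log2 fold change of 0.02. The 9 genes together summed to 139.5, 136 and 141 CPM in GFP and to 83.8, 88.0 and 89.8 CPM in Ezh2-Y726D. Every Ezh2-Y726D library was below every GFP library in this sum (2-sided exact permutation P = 0.1, the smallest P that 3 against 3 libraries can give). In bulk libraries such as these, fewer T cells and less of each RNA per cell cannot be told apart.

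**Figure D1:**
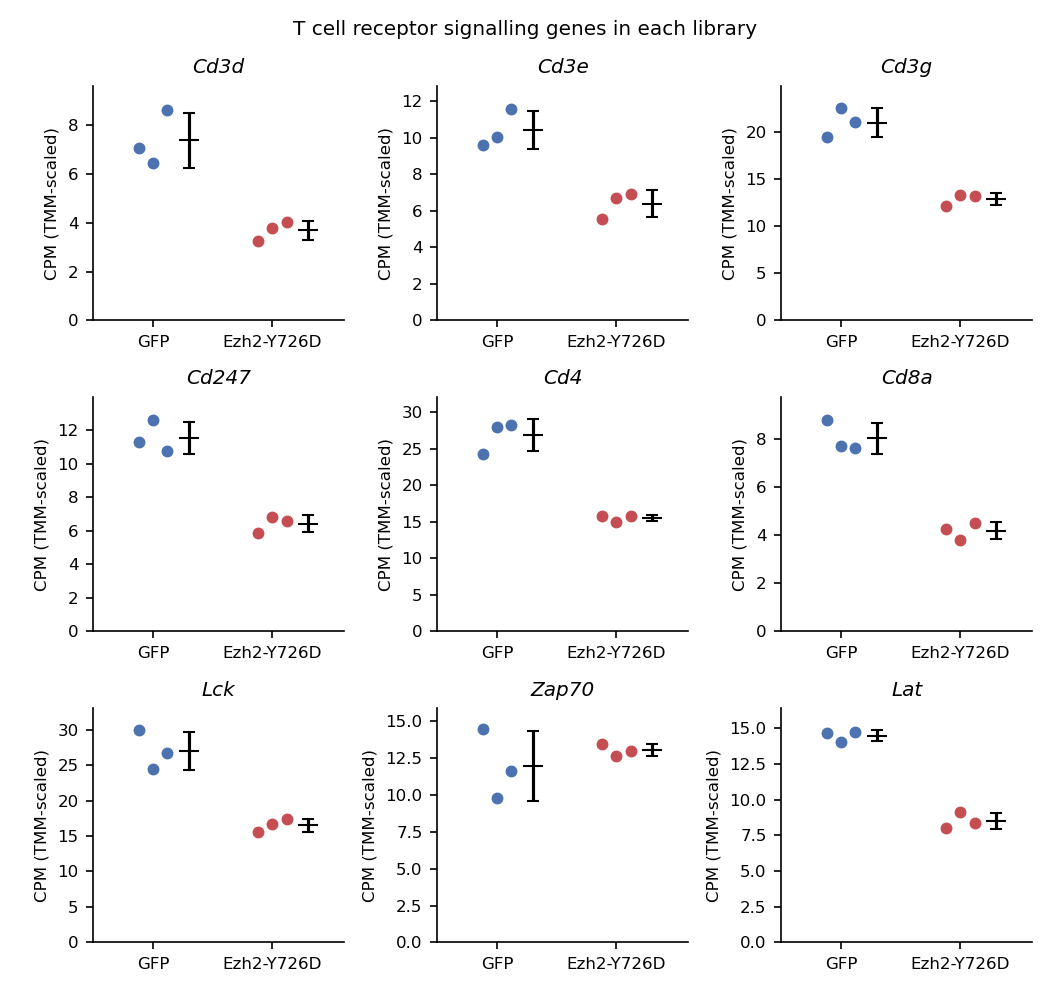
Level of each of the 9 genes in each library, in CPM after TMM scaling, with an axis from 0 for each gene. Points are single libraries (3 GFP in blue, 3 Ezh2-Y726D in red) and the bars beside them show the mean ± SD. The groups do not overlap for 8 genes, whereas the Ezh2-Y726D libraries of Zap70, at 12.7 to 13.4 CPM, lie within the GFP range of 9.79 to 14.5 CPM.

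Calls were made with edgeR's quasi-likelihood test, with an adjusted P under 0.05 over 18138 tested genes. Of all tested genes, 13.6% were called lower and 13.9% higher, so 8 of 9 lower and 0 of 9 higher stands against a background of about as many rises as falls. With the study's own threshold for a differentially expressed gene (DEG), which also asks for a fold change over 1.5, the same 8 genes were called lower against 5.5% of all tested genes. All Ezh2-Y726D libraries were below all GFP libraries for these 8 genes and for 18.9% of all tested genes. The median log2 fold change was -0.76 over the 9 genes and 0.00 over all tested genes. The genes were chosen with earlier results of these data known, so these counts describe them and do not test them as a list.

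With GFP replicate 1 as the only GFP library, the same 8 genes had log2 fold changes from -1.05 to -0.59. The spread in that fit comes from the 3 Ezh2-Y726D libraries alone and the lone GFP library is assumed to vary like them, so its calls are no replicate check of the GFP level. Levels scaled by library totals alone behaved otherwise: the median log2 fold change of all tested genes then rose to 0.49, 19 genes of the whole table were called lower and 46 higher, and 0 of the 9 genes passed. The log2 fold change of the 9 genes had a median of -0.25 under that scaling, which is -0.75 relative to all genes. Scaled without TMM, by the library totals outside the ribosomal RNA gene, the 9 genes summed to 191, 183 and 191 CPM in GFP and to 113, 118 and 120 CPM in Ezh2-Y726D.

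Cd3g, Cd3d and Cd3e, which code for the CD3 gamma, delta and epsilon chains, lie beside each other within 40056 bases of chromosome 9. In GENCODE vM21 on GRCm38, Cd3g (ENSMUSG00000002033, chr9:44969572-44980431, minus strand) and Cd3d (ENSMUSG00000032094, chr9:44981786-44987339, plus strand) start 1355 bases apart and run away from each other. Cd3e (ENSMUSG00000032093, chr9:44998740-45009627, minus strand) ends 11401 bases beyond the end of Cd3d. The 250 bases before the start of each of these 3 genes are shown because the genes are neighbours and moved together, and those of Zap70, the member that did not, are shown beside them. They are from RefSeq on GRCm38.p6, 5′ to 3′ in the orientation of the gene, and capitals mark the letters AGGAAG or their reverse complement CTTCCT, the core that Ets factors prefer.

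Cd3g (chr9:44980432-44980681, minus strand): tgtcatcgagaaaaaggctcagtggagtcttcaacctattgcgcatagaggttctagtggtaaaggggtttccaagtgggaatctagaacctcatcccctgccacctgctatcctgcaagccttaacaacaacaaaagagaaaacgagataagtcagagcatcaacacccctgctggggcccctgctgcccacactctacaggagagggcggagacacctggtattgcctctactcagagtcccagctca

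Cd3d (chr9:44981536-44981785, plus strand): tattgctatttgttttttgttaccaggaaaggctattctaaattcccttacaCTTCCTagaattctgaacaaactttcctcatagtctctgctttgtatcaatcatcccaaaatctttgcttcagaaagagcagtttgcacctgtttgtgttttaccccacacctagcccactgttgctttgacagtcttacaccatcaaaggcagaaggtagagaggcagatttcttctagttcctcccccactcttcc

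Cd3e (chr9:45009612-45009861, minus strand): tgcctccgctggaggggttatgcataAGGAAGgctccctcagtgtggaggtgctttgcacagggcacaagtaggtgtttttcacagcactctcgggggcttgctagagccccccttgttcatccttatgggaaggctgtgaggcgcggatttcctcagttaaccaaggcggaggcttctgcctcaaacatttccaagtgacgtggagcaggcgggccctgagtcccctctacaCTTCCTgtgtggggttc

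Zap70 (chr1:36761548-36761797, plus strand, the first of 3 start sites): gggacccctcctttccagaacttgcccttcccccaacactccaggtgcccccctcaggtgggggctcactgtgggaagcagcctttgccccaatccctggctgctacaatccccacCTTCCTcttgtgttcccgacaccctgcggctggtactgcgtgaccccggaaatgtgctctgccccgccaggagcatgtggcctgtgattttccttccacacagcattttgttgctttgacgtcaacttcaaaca

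The RefSeq table held 8 of the 9 genes, and Cd4 was not matched. AGGAAG, searched on both strands, had 2 matches in the window of Cd3e, 1 in that of Cd3d, 0 in that of Cd3g, and 1, 2 and 0 at the 3 start sites of Zap70, of which the first is shown. Among the other members it had 1 match for Cd247, 1 for Lat, 0 for Cd8a, and 3 and 1 at the 2 start sites of Lck. Of all 32851 promoter windows of this length, 29.5% held it. TGTGGT, a core of Runx sites, was in 1 window of Lck and in the second window of Zap70, against 14% of all windows, and CAGCTG, an E box, was in none of the members' windows, against 13% of all. A match is a string of letters in the window, not a bound site.

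Cd3d had 201, 50 and 52 counts in the GFP libraries and 87, 77 and 119 in the Ezh2-Y726D libraries, which are 7.04, 6.44 and 8.61 CPM against 3.27, 3.77 and 4.03 CPM. Its levels were low, and the lowest GFP library was above the highest Ezh2-Y726D library. The mean was 7.37 ± 1.12 CPM in GFP and 3.69 ± 0.388 CPM in Ezh2-Y726D, with a log2 fold change of -0.96 (SE 0.142, edgeR adjusted P = 4.26e-06), a fitted level 48.7% lower.

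Cd3e was at 9.60, 10.1 and 11.6 CPM in GFP and at 5.55, 6.70 and 6.94 CPM in Ezh2-Y726D, from 70 to 274 counts in a library. The groups did not overlap. Its log2 fold change of -0.66 (SE 0.118, edgeR adjusted P = 7.11e-05) was the smallest among the genes that fell. Of its exonic bases, 3.31% are shared with Gm48719 on the other strand.

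Cd3g was the most abundant of the 3 neighbours, at 19.5, 22.5 and 21.0 CPM in GFP and 12.2, 13.4 and 13.2 CPM in Ezh2-Y726D. The spread within each group was small beside the gap between them. The mean fell from 21.0 ± 1.53 to 12.9 ± 0.638 CPM, with a log2 fold change of -0.67 (SE 0.0823, edgeR adjusted P = 2.37e-07).

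Cd247 codes for the zeta chain, whose tail holds more tyrosine motifs than any other chain of the complex, and lies elsewhere (ENSMUSG00000005763, chr1:165788681-165877277, plus strand). It was at 11.3, 12.6 and 10.8 CPM in GFP and at 5.89, 6.85 and 6.57 CPM in Ezh2-Y726D. All Ezh2-Y726D libraries were lower, with a log2 fold change of -0.84 (SE 0.109, edgeR adjusted P = 5.36e-07). Of its exonic bases, 60.3% overlap other genes, chiefly Pou2f1 on the other strand. How strand was used in counting is not given in the sources used here, so reads of the shared bases cannot be assigned with certainty. Pou2f1 itself was at 59.6 ± 4.74 CPM in GFP and 58.5 ± 3.34 CPM in Ezh2-Y726D, with a log2 fold change of 0.01 (SE 0.059, edgeR adjusted P = 0.933).

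The co-receptors mark the 2 main classes of mature T cells. Cd4 (ENSMUSG00000023274, chr6:124864692-124888221, minus strand), which binds MHC class II and is known also from some myeloid cells, was at 24.3, 28.0 and 28.2 CPM in GFP and at 15.7, 15.02 and 15.8 CPM in Ezh2-Y726D. The Ezh2-Y726D libraries lay within 1 CPM of each other and below all GFP libraries, and the log2 fold change was -0.74 (SE 0.0756, edgeR adjusted P = 8.76e-09). Cd8a (ENSMUSG00000053977, chr6:71373427-71379173, plus strand), a chain of the MHC class I co-receptor, was at 8.79, 7.73 and 7.62 CPM in GFP and at 4.28, 3.82 and 4.50 CPM in Ezh2-Y726D. Here too the groups did not overlap, and the log2 fold change of -0.97 (SE 0.128, edgeR adjusted P = 6.98e-07), a fitted level 49.1% lower, was the lowest of the 9 genes.

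The number of Cd4 counts per count of Cd8a in the same library was 2.77, 3.62 and 3.70 in GFP and 3.68, 3.94 and 3.50 in Ezh2-Y726D. This ratio, which no scaling between libraries can move, overlapped between the groups (3.36 ± 0.516 against 3.71 ± 0.218, n = 3 each, 2-sided exact permutation P = 0.5). A difference between the falls of the 2 co-receptors was not detected with these libraries.

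Lck, the kinase that starts the cascade (ENSMUSG00000000409, chr4:129548344-129573641, minus strand), was with Cd4 one of the 2 genes with the most counts in each of the 6 libraries. It was at 29.9, 24.5 and 26.7 CPM in GFP and at 15.5, 16.7 and 17.3 CPM in Ezh2-Y726D. All Ezh2-Y726D libraries were below all GFP libraries, and the log2 fold change was -0.75 (SE 0.077, edgeR adjusted P = 8.77e-09).

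Lat, the membrane adaptor (ENSMUSG00000030742, chr7:126363824-126369570, minus strand), was at 14.6, 14.0 and 14.7 CPM in GFP and at 7.99, 9.10 and 8.39 CPM in Ezh2-Y726D. Its GFP libraries were the closest to each other of the 9 genes relative to their mean (14.5 ± 0.380 CPM). It fell to 8.50 ± 0.561 CPM, with a log2 fold change of -0.78 (SE 0.0944, edgeR adjusted P = 1.85e-07).

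Zap70, the kinase between Lck and Lat (ENSMUSG00000026117, chr1:36761798-36782818, plus strand), was the exception. It had 413, 76 and 70 counts in GFP and 358, 259 and 384 in Ezh2-Y726D, or 14.5, 9.79 and 11.6 CPM against 13.4, 12.7 and 13.0 CPM. The GFP libraries spread more widely than those of any other member relative to their mean, and the Ezh2-Y726D libraries lay inside their range. The means were 11.95 ± 2.36 and 13.0 ± 0.382 CPM, with a log2 fold change of 0.02 (SE 0.103, edgeR adjusted P = 0.914), which does not show that its level was unchanged. The value depends on GFP replicate 1: without it the log2 fold change was 0.30 (SE 0.13, edgeR adjusted P = 0.106). With it as the only GFP library, a value with no spread among GFP libraries behind it, the log2 fold change was -0.15.

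**Figure D2:**
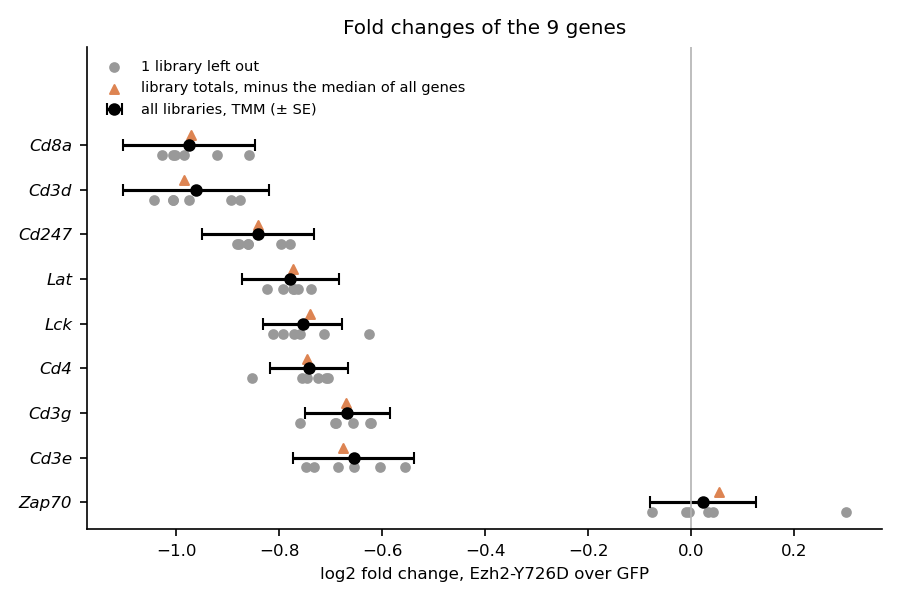
Log2 fold change of each gene, Ezh2-Y726D over GFP, ordered by size. Black points with bars are the fit to all libraries with TMM scaling ± SE, grey points are fits that leave out 1 library each, and orange triangles are fits scaled by library totals, from which the median of all genes was subtracted. The 8 genes that fell stay at or below -0.56 in every fit shown, and Zap70 runs from -0.08 to 0.30 when 1 library is left out.

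Whether Zap70 differed from its partners was asked within each library, where sequencing depth and scaling cancel. These ratios were chosen after the data were seen, because Zap70 had not fallen with the others. Their P values for Zap70 therefore describe that difference and do not test it. Zap70 had 0.401, 0.251 and 0.281 counts per count of Cd3d, Cd3e and Cd3g together in the GFP libraries and 0.639, 0.532 and 0.537 in the Ezh2-Y726D libraries. Every Ezh2-Y726D library was above every GFP library (0.311 ± 0.0792 against 0.569 ± 0.0606, n = 3 each, 2-sided exact permutation P = 0.1, the smallest possible). Against Lck, the kinase that acts just before it, Zap70 had 0.484, 0.400 and 0.435 counts in GFP and 0.867, 0.760 and 0.750 in Ezh2-Y726D, again without overlap (exact permutation P = 0.1). GFP replicate 1 was closest to the Ezh2-Y726D libraries in both ratios and still below them.

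For the other members the groups overlapped in this ratio. Lck had 0.827, 0.627 and 0.647 counts per CD3 count in GFP and 0.738, 0.7002 and 0.716 in Ezh2-Y726D, with the Ezh2-Y726D libraries inside the GFP range (exact permutation P = 1.0). Lat, Cd247, Cd4 and Cd8a overlapped between the groups as well, with exact permutation P of 0.8, 0.4, 0.8 and 0.5. At 3 libraries a group these values do not show that the proportions were equal.

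**Figure D3:**
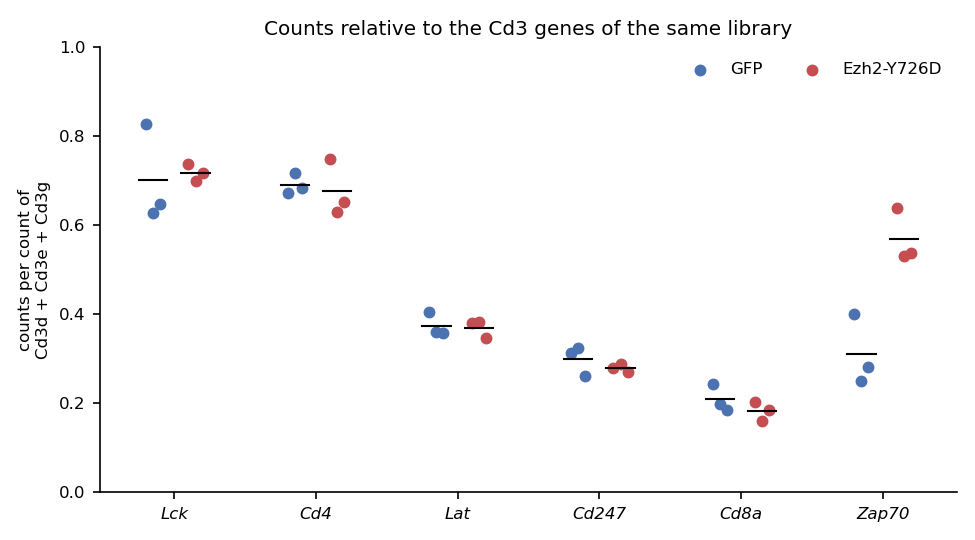
Counts of 6 genes per count of Cd3d, Cd3e and Cd3g in the same library, on a linear axis from 0, with 3 GFP libraries in blue, 3 Ezh2-Y726D libraries in red and the mean of each group as a line. The groups overlap for Lck, Cd4, Lat, Cd247 and Cd8a, and for Zap70 the lowest Ezh2-Y726D library, at 0.532, is above the highest GFP library, at 0.401.

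Levels of different genes were compared as CPM per kilobase of exonic length. In the GFP libraries the order was Lck at 9.22, Cd4 at 6.65, Cd3g at 6.43, Lat at 5.23, Cd3d at 4.06, Zap70 at 3.99, Cd3e at 2.55, Cd8a at 2.21 and Cd247 at 2.17. The libraries of Cd4 and Cd3g overlapped in this order, as did those of Cd3d and Zap70. Those of Cd3e, Cd8a and Cd247 all overlapped with each other. The length counts all annotated exonic bases of a gene, of which 60.3% overlap other genes in Cd247. In the Ezh2-Y726D libraries Lck again came first at 5.64, and Zap70 moved from place 6 to place 2 at 4.36, above Cd3g at 3.96 and Cd4 at 3.85. Lat at 3.07, Cd3d at 2.03, Cd3e at 1.57, Cd247 at 1.21 and Cd8a at 1.15 followed. There the libraries of Cd3g and Cd4 overlapped, and those of Cd247 and Cd8a.

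The genes that work with the 9 members were taken as 4 further lists, of which all 73 genes were tested. Of these, 49 were called lower, 5 higher and 19 did not pass, with a median log2 fold change of -0.54. Among all tested genes, 13.6% were called lower and 13.9% higher, so the 5 higher are a share below that of all genes. They became 3 with DESeq2 and 0 with a fold change over 1.5 in addition. Of the 8 other receptor and co-receptor chains, 5 were lower, 0 higher and 3 did not pass (median -0.60). These were Trbc2, Trbc1 and Trac, the constant parts of the beta and alpha chains, at -0.87 (SE 0.101), -0.61 (SE 0.125) and -0.54 (SE 0.0853), Trdc of the delta chain at -0.80 (SE 0.285) and Cd8b1, the partner of Cd8a, at -0.59 (SE 0.159). Trac was at 17.1, 16.9 and 16.4 CPM in GFP and at 11.1, 11.4 and 12.4 CPM in Ezh2-Y726D, with no overlap. The genes that did not pass were Tcrg-C1, Tcrg-C2 and Tcrg-C4 of the gamma chain, at -0.85 (SE 0.334), -0.36 (SE 0.228) and -0.32 (SE 0.382). Gamma chain genes include close copies, whose reads may be shared. Trbc1 and Trbc2 are also close copies of each other.

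Of 30 kinases, adaptors and phosphatases that act close to the receptor, 20 were lower, 2 higher and 8 did not pass (median -0.71). Among all tested genes 13.6% were lower and 13.9% higher, so the 2 higher are a share below that of all genes. The lowest were Txk, a Tec family kinase, at -1.07 (SE 0.207), the actin regulator Was at -1.002 (SE 0.108), the adaptors Skap1 at -0.996 (SE 0.115) and Sh2d2a at -0.95 (SE 0.117), and the exchange factor Vav1 at -0.95 (SE 0.0655). Vav1 and Was are used widely among blood cells and are not particular to T cells. The 2 that rose were the adaptor Shb at 0.51 (SE 0.164) and the phosphatase Ubash3b at 0.28 (SE 0.0689), both of which are expressed well beyond lymphocytes.

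Of 19 distal effectors, 10 were lower, 3 higher and 6 did not pass (median -0.19), the 3 higher being a share near the 13.9% of all tested genes. Prkcq, the protein kinase C theta of T cells, was at -0.59 (SE 0.0858). The transcription factor Nfatc1 was at -0.51 (SE 0.0856), Map3k8 at -0.39 (SE 0.121) and Bcl10 at -0.37 (SE 0.0753). The 3 that rose, the calcium channel Itpr1 at 0.18 (SE 0.0405) and the calcineurin subunits Ppp3r1 at 0.17 (SE 0.0516) and Ppp3cb at 0.14 (SE 0.0464), are genes that neurons express strongly.

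Among 16 co-stimulatory and co-inhibitory receptors, 14 were lower, 0 higher and 2 did not pass (median -0.81). The shares over all tested genes were 13.6% lower and 13.9% higher. The inhibitory receptors Tigit at -1.33 (SE 0.351) and Ctla4 at -1.15 (SE 0.105) and the activating receptors Cd226 at -1.04 (SE 0.151), Cd27 at -0.98 (SE 0.237) and Icos at -0.92 (SE 0.0931) were the lowest. Tigit was at most at 1.67 CPM in any library. Lag3 and Cd40lg, which were looked up after the counts were known, were at 0.03 (SE 0.112, edgeR adjusted P = 0.906) and 0.02 (SE 0.39, edgeR adjusted P = 0.978).

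**Figure D4:**
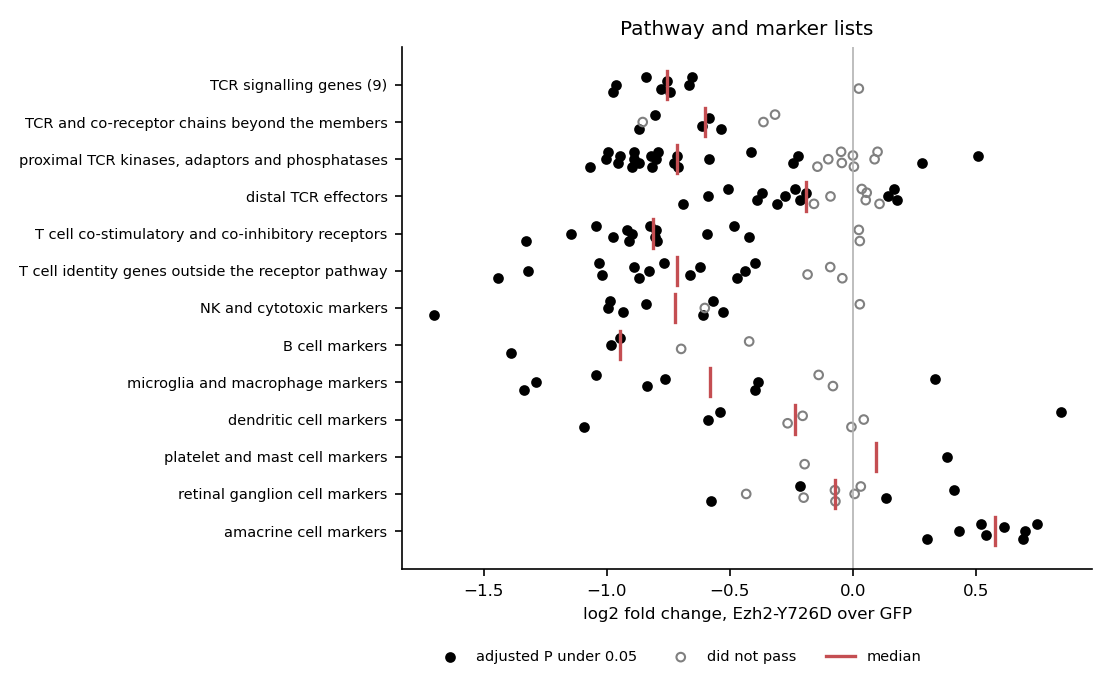
Log2 fold change, Ezh2-Y726D over GFP, of every tested gene of the 9 members, the 4 pathway lists and the 8 marker lists. Filled points passed an adjusted P of 0.05, open points did not, and red lines are list medians, from -0.95 for B cell markers to 0.58 for amacrine cell markers.

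Other T cell genes were taken as a list of 16, of which 13 were lower, 0 higher and 3 did not pass (median -0.72). Beside this count and those of the other lists below stand 13.6% lower and 13.9% higher among all tested genes. The list was meant to lie outside the receptor pathway but holds 1 receptor segment, Trbv1, which is among the 3 that did not pass. The summed level of the 16 genes was 167 to 178 CPM in GFP and 107 to 109 CPM in Ezh2-Y726D. The membrane proteins Ms4a6b and Ms4a4b, the most abundant of them, were at -1.03 (SE 0.0781) and -0.83 (SE 0.0975). Markers of other blood cells differed between lists. Of 10 natural killer and cytotoxic markers, 8 were lower and 0 higher, with a summed level of 79.1 to 83.7 CPM in GFP and 45.0 to 50.9 CPM in Ezh2-Y726D. Of 8 B cell markers, 5 were tested and 3 were lower, with a summed level of 13.4 to 15.5 and 5.70 to 6.95 CPM, and Fcmr had at most 3 counts in any library. Of the 10 microglia and macrophage markers whose sums are given above, 7 were lower, 1 higher and 2 did not pass (median -0.58). C1qa and Csf1r, the most abundant of them, were at -0.84 (SE 0.051) and -0.39 (SE 0.0515), and Adgre1, Cd68 and Aif1, at -1.33 (SE 0.0637), -1.29 (SE 0.064) and -1.04 (SE 0.0884), were lower than any of the 9 members in log2 fold change. P2ry12, the 1 that was higher, was at 0.33 (SE 0.111), and Tmem119 and Itgam, at -0.14 (SE 0.0944) and -0.08 (SE 0.123), did not pass. Of the exonic bases of Itgam, 68.7% overlap other genes, so its reads cannot be assigned with certainty. Of 8 dendritic cell markers, 3 were lower, 1 was higher, a share near that of all tested genes, and 4 did not pass. Their summed level was 67.3 to 73.4 CPM in GFP and 54.9 to 60.3 CPM in Ezh2-Y726D. The higher one, Cd209a, was at 0.84 (SE 0.312). It had only 39, 5 and 2 counts in GFP and 55, 24 and 67 in Ezh2-Y726D, and its groups overlapped in CPM. Of the 8 platelet and mast cell markers, 2 were tested, of which Kit was higher at 0.38 (SE 0.0846). The summed level of the 6 in the table was 22.5 to 23.5 CPM in GFP and 24.6 to 31.6 CPM in Ezh2-Y726D. Most of it was Kit, with means of 19.9 and 25.5 CPM. Pf4, with means of 0.797 and 0.0125 CPM, and Cpa3, with 0.333 and 0.0864 CPM, had too few counts to be tested. Both were lower in every Ezh2-Y726D library than in every GFP library. Ppbp and Gp6 had at most 3 counts in any library.

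Of 10 retinal ganglion cell markers, 2 were lower, 2 higher and 6 did not pass (median -0.07), shares near the 13.6% and 13.9% of all tested genes. The higher ones were Pou4f1 at 0.41 (SE 0.0964) and Thy1 at 0.13 (SE 0.046, edgeR adjusted P = 0.0315), and the lower ones were Isl1 at -0.58 (SE 0.0606), the farthest from 0 in this list, and Nrn1 at -0.22 (SE 0.0727). All 8 amacrine cell markers were higher (median 0.58). The summed levels of the T cell, natural killer, B cell, microglia and macrophage, and dendritic cell lists were lower in every Ezh2-Y726D library than in every GFP library, like those of the 9 members, with the exceptions among single genes given above. Genes named for being exceptions were chosen after their values were seen. The part of a changed number of such cells in the sorted samples in the fall of the 8 members was not tested.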

How the data were processed

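RNA-Seq was performed on 6 libraries of sorted retinal cells, 3 GFP and 3 Ezh2-Y726D, grouped by their labels. The deposited values are raw read counts, 1 whole number per gene and library, which the authors had not normalized. STAR 2.7.0d and GRCm38 are named in the submitters' processing notes, the kit was a stranded total RNA kit, and the counting tool, its strand setting and the annotation are not given in the sources used here. All 6 columns were used. Symbols were matched for 32325 of the 32371 identifiers and coordinates for 32342 (GENCODE vM21).

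The members and the gene lists were chosen with earlier results of these data known. Of the lists, the members and the up to 5 lowest and 5 highest genes that passed in each pathway list were named, with Ezh2, Thy1, the 2 most abundant genes of a marker list and its genes with at most 3 counts in every library. Where one of those genes adds nothing to the members, only its list's counts are given, and 1 gene that the rule names is not reported here.

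Counts were tested with edgeR's quasi-likelihood test (edgeR 4.0.16, R 4.3.3) with TMM factors of 0.647 to 1.31, filterByExpr (10 counts, total of 15) and Benjamini-Hochberg adjustment over 18138 genes; the common biological coefficient of variation was 0.0442. SE was derived as the log2 fold change over the root of edgeR's F. CPM are TMM-scaled, and library totals without the ribosomal RNA gene were 4460732 to 22024582. Single values were compared with 2-sided exact permutation tests. On simulated data, 175 of 200 genes with a log2 change of 1 were recovered (87.5%), and 11 unchanged genes were called. Every gene was simulated with the common coefficient of variation, so differences in spread between genes were left out. No library was a copy of another: chi-square per degree of freedom was 1.49 to 3.03 within groups. Alternatives were RLE factors, library totals, removal of the ribosomal RNA gene, other filters, DESeq2 1.42.0, thinning, a replicate block and leaving out libraries.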

Additional observations from a re-analysis of the deposited data

How the results depend on the processing

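Of the 9 genes, 8 were called lower and 0 higher under all alternatives but library totals (members lower 0, pathway genes lower 0, pathway genes higher 0), where edgeR adjusted P of the 8 genes was 0.421 to 0.723, against 19 genes lower and 46 higher in the whole table. Each of the 8 genes kept its call in 15 of 16 alternatives, among them the fit with GFP replicate 1 alone, whose spread comes from the Ezh2-Y726D libraries. Leaving out 1 library at a time gave log2 fold changes of -1.04 to -0.88 for Cd3d, -0.75 to -0.56 for Cd3e, -0.76 to -0.62 for Cd3g, -0.88 to -0.78 for Cd247, -0.85 to -0.71 for Cd4, -1.03 to -0.86 for Cd8a, -0.81 to -0.63 for Lck and -0.82 to -0.74 for Lat. Zap70 ran from -0.08 to 0.30 and passed in no alternative; it was at -0.077 without GFP replicate 2, -0.011 without GFP replicate 3, -0.005 without Ezh2-Y726D replicate 1, and -0.147 with GFP replicate 1 as the only GFP library, an alternative chosen after seeing the data. The 5 pathway genes called higher became 3 with DESeq2, after thinning and with GFP replicate 1 alone, 3 to 4 with 1 library left out, among them 3 without GFP replicate 2, GFP replicate 3 or Ezh2-Y726D replicate 2, and 0 with a fold change over 1.5; the cause was not tested. The 49 called lower became 36 after thinning to the shallowest library, 39 with DESeq2, 39 without GFP replicate 1 and 34 with a fold change over 1.5. Same replicate numbers correlated at 0.137, 0.051 and 0.039 in their deviations, each sample best with its own number, a hint of pairing in the data; as only 1 of the 3 is over 0.1 and no label gives the numbers a meaning, they were not used as pairs. With the replicate block 8 members were lower, and 48 pathway genes lower and 5 higher. Removing the ribosomal RNA gene moved all CPM levels up but no call of a member. GFP replicates 2 and 3 had the fewest counts outside that gene (5745352 and 4460732), and 46 counts of Cd8a in GFP replicate 3 were the fewest of any member, so precision is lowest there.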

Other observations

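The variable segments of the receptor chains were summed after the data were seen, because single segments have few counts and near-identical copies. For Trbv, the beta chain segments, 22 genes were in the table and 7 were tested. Their summed level was 10.9, 11.1 and 11.8 CPM in the GFP libraries and 5.48, 6.95 and 6.36 CPM in the Ezh2-Y726D libraries, with no overlap (2-sided exact permutation P = 0.1, the smallest possible). For Trav, the alpha chain segments, 66 genes were in the table and 1 was tested. Their summed level was 4.66, 3.61 and 6.46 CPM in GFP and 2.97, 3.57 and 2.37 CPM in Ezh2-Y726D (exact permutation P = 0.1), and the groups were separated by less than 0.1 CPM. In the library with the most segments, GFP replicate 1, 43 Trav and 21 Trbv genes had at least 1 count, and the reads of such families may be shared among copies.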
